A study of Mus musculus with 24 samples.

Results

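This report describes how the effect of epithelial Cenpj loss differed between the embryonic lung and the embryonic small intestine of the mouse. The quantity is a difference of differences. For each gene, the log2 difference between Cenpj mutant and control intestine was subtracted from the same difference in lung, so that a positive value means a larger increase, or a smaller decrease, in lung. The members are the 16 of 24 libraries of the series that carry these genotypes, with 4 libraries in each of 4 groups, and the remaining 8 libraries, of Ift88 mutants, entered the model only through the shared estimate of the spread. Whole organs were dissected at E11.5, which the design text places before any obvious phenotype, and their total RNA was sequenced. Control embryos had the genotype ShhCre Cenpj+/lox and mutants had the genotype ShhCre Cenpj-/lox. Both genotypes carry a recombinase placed at Shh, a gene of lung and gut epithelium, so control epithelium keeps 1 working copy of Cenpj and has the recombinase too, and the mesenchyme, vessels and blood of the mutants are heterozygous. Labels number the libraries 1 to 4 in each group without saying that they came from separate embryos, so p-values measure the spread between these libraries.

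Cenpj encodes a protein needed to build the centriole wall. Cells that divide without centrioles spend longer in mitosis, and the mitotic surveillance pathway, in which the proteins encoded by Trp53bp1 and Usp28 act upstream of p53, can then stop the cycle or start cell death. Centrioles also form the base of the primary cilium, on which mammalian hedgehog signalling depends.

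Values are normalized counts as the authors deposited them, and differences are on the scale of log2(value + 1). Cenpj itself (ENSMUSG00000064128, chromosome 14, bases 56526761 to 56575425) stood at 3591, 4164, 3717 and 2259 in the control lung libraries 1 to 4 and at 2133, 2958, 2636 and 2581 in the mutant lung libraries. In intestine it stood at 3365, 3631, 4537 and 2674 in controls and at 2084, 2733, 3114 and 2472 in mutants. In both organs the lowest control library lay inside the mutant range, so the groups overlapped. The mutant level differed from control by -0.39 in lung and by -0.44 in intestine, and neither difference passed the test (limma adjusted p = 0.335 and 0.658). The difference between the organs was 0.05 (95% interval -0.43 to 0.54), an interval that holds 0. In bulk tissue, fewer cells of a type and less RNA per cell cannot be told apart. Ift88, which encodes a ciliary transport protein, had a difference between the organs of -0.03 (95% interval -0.40 to 0.35).

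Recovered totals ran from 96.1 to 120.9 M reads per library. The 8 lung libraries held 2977 to 11821 normalized counts of Nkx2-1, the defining transcription factor of lung epithelium, against 0 to 14.2 in the 8 intestinal libraries. Cdx2, the defining factor of intestinal epithelium, stood at 629 to 1911 in intestine against 0 to 15 in lung. The organ labels thus matched both of these markers. By median, most other listed markers of the organs went the same way. Sox2 and Foxf1, listed for lung, were higher in intestine (medians 1734 and 32526, against 511 and 25466 in lung). Cdx1, listed for intestine, was low in both, with medians of 38.1 in lung and 8.75 in intestine. All 8 mutant libraries carried over 2000 ribosomal RNA reads per M reads, and so did 1 control in each organ, lung control 3 and intestine control 2. Because the numbers are the same in both organs, an additive term for this kind of library cancels out of the difference between organs. Its size did not match between the organs, however: ribosomal RNA ran from 7408 to 12863 reads per M reads in mutant lung and from 2519 to 4332 in mutant intestine. By the Y-linked transcript Ddx3y and by Xist, control library 1 of each organ came from male tissue and intestinal mutant library 1 from mixed tissue.

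Across 32098 genes tested, limma called 0 genes (0%) as differing between the organs in their response to Cenpj loss at an adjusted p under 0.05, and the smallest adjusted p was 0.533. At an unadjusted p under 0.05 there were 1528 genes (4.76%), 582 higher (1.81%) and 946 lower (2.95%). The edgeR quasi-likelihood test and limma-voom also called 0 genes, while DESeq2 called 44, of which 3 had a mean of 200 or more normalized counts: Cdkn1a, Nkx2-3 and Hlf. So the values that follow describe differences between organs of which none passed the limma test, each with its interval. Within single organs, the same fit called 195 genes in mutant lung (0.608%), 51 higher (0.159%) and 144 lower (0.449%), and 3 genes in mutant intestine (0.00935%), 2 higher (0.00623%) and 1 lower (0.00312%).

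The plot of lung against intestinal effects shows how far these calls went together. Of the 51 genes that rose in lung, 42 also had a value above 0 in intestine, where 49.9% of all genes tested did. Their median was 0.65 in lung and 0.15 in intestine. Of the 144 genes that fell in lung, 138 lay below 0 in intestine, with medians of -0.77 and -0.36. Across the 14481 genes with a mean of 200 or more, the correlation between both effects was 0.30, over genes that are not independent and in libraries that share the imbalance in ribosomal RNA. In the authors' deposited table, 28 genes passed its threshold in both organs, which is 3.44% of its 814 lung genes and 30.1% of its 93 intestinal genes, and these 28 had the same direction in both.

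**Figure D1:**
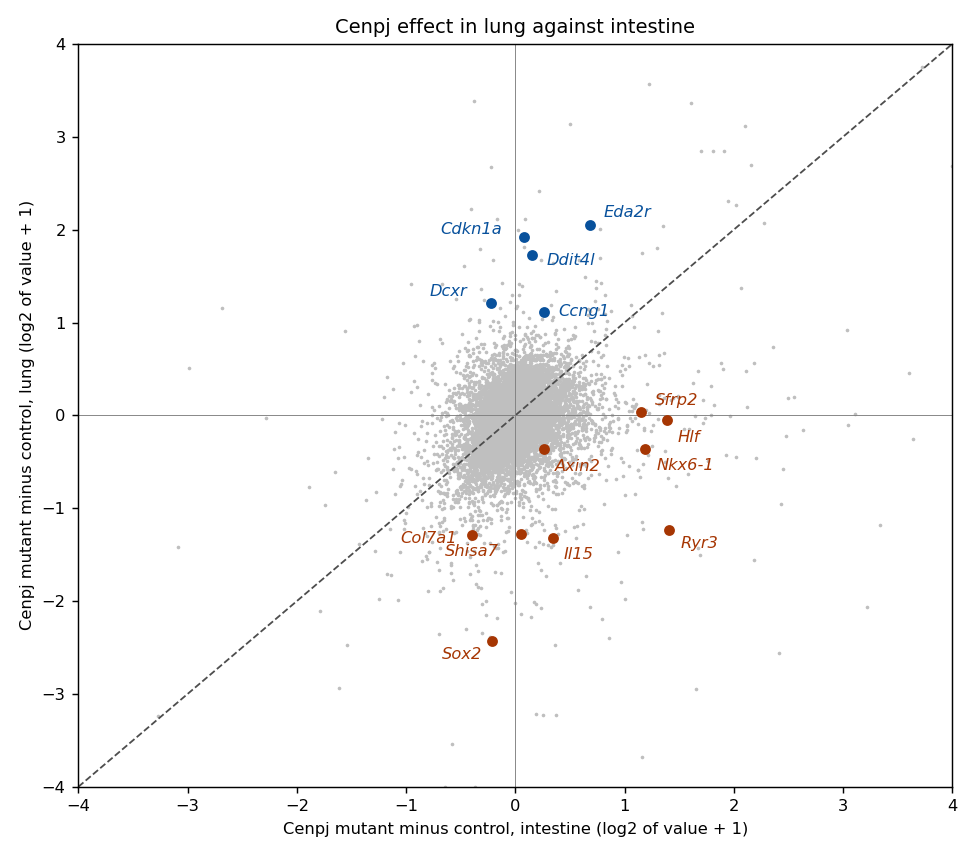
Mutant minus control difference in intestine (x axis) and lung (y axis), on the scale of log2(value + 1), for 14481 genes with a mean of 200 or more normalized counts; grey points are genes, coloured points are named genes (blue above and brown below the dashed line of equal effects), and 6 genes beyond 4 on either axis are drawn at the edge. Cdkn1a, Ddit4l, Eda2r, Ccng1 and Dcxr lie high on the lung axis, while Hlf, Sfrp2 and Nkx6-1 lie to the right on the intestinal axis.

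Several targets of p53 rose in mutant lung and none of those listed changed in intestine, but the contrast between the organs did not itself pass the limma test for any of them. Of 64 genes on 4 lists of p53 targets and regulators, 62 were tested; 8 rose and 0 fell in lung at the adjusted threshold, where 0.159% of all genes rose and 0.449% fell, and 0 changed in intestine. The difference between organs was above 0 for 47 of the 62, where 45.9% of all genes were, and 9 were higher at an unadjusted p under 0.05 and 0 lower (1.81% and 2.95% of all genes), with 0 passing adjustment. The median difference between organs was 0.15 over these genes, beside -0.03 over all genes tested. These lists were chosen with earlier results of the same libraries known.

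Cdkn1a encodes the cyclin-dependent kinase inhibitor p21, the main effector of p53 in cell cycle arrest (ENSMUSG00000023067, chromosome 17, bases 29090979 to 29100722). Of the 9 listed p53 genes with a higher difference between organs at an unadjusted p under 0.05, 5 have a promoter window that holds a p53 half-site, the unit of which a full p53 response element has a pair. Sequence is shown for 4 of these 5 to let the half-sites be read, and Ckap2, whose window holds 1, is not shown. The windows are the 250 bases before the start of the RefSeq gene on GRCm38.p6, written on the gene's strand, with the half-sites in capitals, and were picked after the matches were seen.
Cdkn1a (chr17:29090729-29090978, plus strand): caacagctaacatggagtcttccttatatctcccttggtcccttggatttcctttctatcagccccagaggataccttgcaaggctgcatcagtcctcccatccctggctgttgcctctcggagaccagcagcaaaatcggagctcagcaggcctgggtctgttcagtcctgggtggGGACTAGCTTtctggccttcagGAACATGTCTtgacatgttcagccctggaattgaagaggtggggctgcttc
Ccng1 (chr11:40755287-40755536, minus strand): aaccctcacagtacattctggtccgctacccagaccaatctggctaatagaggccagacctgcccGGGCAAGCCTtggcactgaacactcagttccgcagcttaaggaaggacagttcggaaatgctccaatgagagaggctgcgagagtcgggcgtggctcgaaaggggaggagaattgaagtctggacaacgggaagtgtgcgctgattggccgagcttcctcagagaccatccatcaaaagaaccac
Bax (chr7:45466899-45467148, minus strand): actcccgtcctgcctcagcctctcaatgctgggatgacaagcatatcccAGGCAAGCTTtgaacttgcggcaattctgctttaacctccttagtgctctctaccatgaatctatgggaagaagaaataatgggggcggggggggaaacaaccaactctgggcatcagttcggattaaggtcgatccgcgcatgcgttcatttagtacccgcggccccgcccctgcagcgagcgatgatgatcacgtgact
Ddit4l (chr3:137623422-137623671, plus strand): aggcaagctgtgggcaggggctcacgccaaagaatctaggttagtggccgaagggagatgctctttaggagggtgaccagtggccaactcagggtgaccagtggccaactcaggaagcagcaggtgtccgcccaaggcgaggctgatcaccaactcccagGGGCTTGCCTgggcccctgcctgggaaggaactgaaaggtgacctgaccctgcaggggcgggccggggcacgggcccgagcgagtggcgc
The Cdkn1a window holds 2 half-sites, starting 73 and 51 bases before the start, and belongs to the upstream one of its start sites. The other 3 windows shown hold 1 each, at 185 bases before the start for Ccng1, 201 for Bax and 90 for Ddit4l. The half-site pattern reads the same on both strands, and the matches did not overlap. Among 32851 promoter windows in the RefSeq table, 7.13% hold at least 1. Of the 64 listed p53 genes, 52 matched the table and 16 of their 65 windows hold one. Counted by gene, 8.20% of 27025 genes have a window with a half-site, and 16 of the 52 matched p53 genes do. A match is a description of these letters, and its absence from a window says nothing of p53.

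Cdkn1a stood at 718, 619, 967 and 462 in control lung and at 4745, 2749.8, 1488 and 2106 in mutant lung. In intestine the controls stood at 1451, 1421, 2205 and 1038 and the mutants at 1559.5, 1621, 1358 and 1704. All 4 mutant lungs were above all 4 control lungs, while the intestinal groups overlapped throughout. Control intestine, at 1529 ± 489 (SD, n = 4), was already above control lung, at 692 ± 212 (SD, n = 4). Cdkn1a rose by 1.92 in lung (limma adjusted p = 0.00617) and differed by 0.08 in intestine, a difference between organs of 1.84 (95% interval 0.88 to 2.81, unadjusted p = 0.000545, adjusted p = 0.932). In DESeq2 the difference was 1.97 with an adjusted p of 0.0337. The authors' deposited table gives a fold of 4.01 in lung and of 1.02 in intestine.

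Ccng1, a p53 target that encodes cyclin G1 (ENSMUSG00000020326, chromosome 11, bases 40748552 to 40755311), stood at 4057, 4342, 3922 and 5769 in control lung and at 10576, 12626, 6241 and 10438 in mutant lung. Its intestinal libraries stood at 3926, 4677, 3443 and 4026 in controls and at 5158, 4291, 5017 and 4699.8 in mutants. The lung groups were apart, and the lowest mutant lung was just above the highest control. Its lung increase was 1.11 (limma adjusted p = 0.00132), beside 0.26 in intestine (limma adjusted p = 0.863), and the difference between organs was 0.85 (95% interval 0.39 to 1.31).

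**Figure D2:**
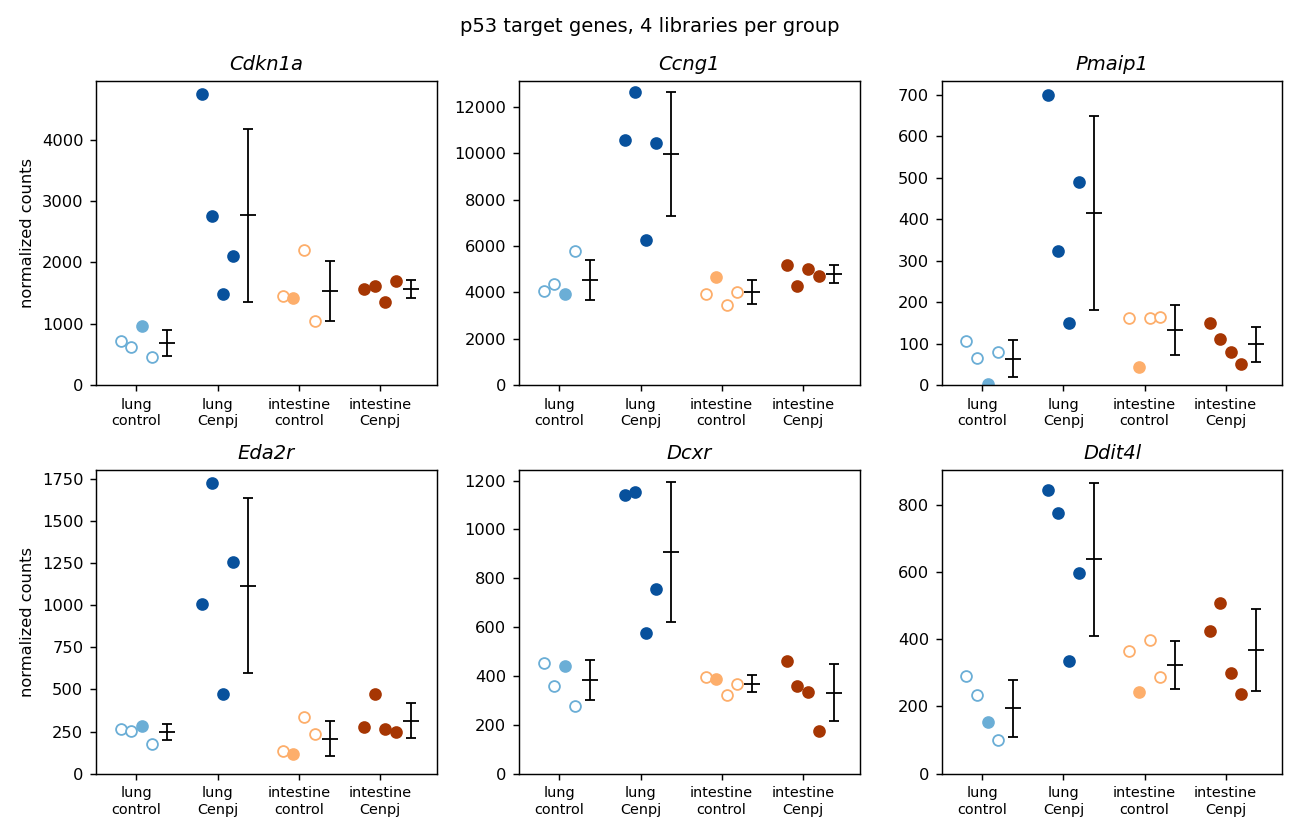
Normalized counts (y axis, from 0) of 6 p53 target genes in the 4 groups (x axis); points are libraries 1 to 4 from left to right, filled where ribosomal RNA exceeded 2000 reads per M reads, and the black mark and bar beside each group are its mean and SD (n = 4). The 4 mutant lungs lie above the control lungs for each of the 6 genes, and the intestinal groups overlap. The 6 genes were picked with results of these libraries known, so their separation is not further support.

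Genes of p53-dependent cell death showed the same pattern in part. Pmaip1, which encodes the BH3-only protein NOXA, stood at 107, 66, 2.3 and 79.8 in control lung and at 699, 323, 149 and 489 in mutant lung. Control intestine stood at 162, 43.7, 163 and 165 and mutant intestine at 149.6, 111, 80.6 and 51.9. Mutant lungs were above control lungs, and the ribosomal RNA-rich control was the lowest library in each organ. The lung increase was 3.27 (limma adjusted p = 0.0428) and the difference between organs 3.63 (95% interval 1.41 to 5.85), which ran from 2.47 to 4.14 when single libraries were left out.

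Eda2r, a TNF receptor family member induced by p53, stood at 267, 254, 286 and 177 in control lung and at 1009, 1722, 474 and 1258 in mutant lung, with no overlap. In intestine it stood at 135, 118, 339 and 239 in controls and at 278, 472, 265 and 246 in mutants, with overlap. It rose by 2.06 in lung (limma adjusted p = 0.0147), had a value of 0.68 in intestine that did not pass (adjusted p = 0.863), and differed between organs by 1.38 (95% interval 0.22 to 2.53). Bax, the mitochondrial effector of apoptosis, passed in neither organ: its lung difference was 0.26, its intestinal difference -0.19, and the difference between organs 0.45 (95% interval 0.13 to 0.77). Over the 13 genes of this cell death list the median difference was 0.22, with 12 above 0 (45.9% of all genes). Among 22 genes of the core apoptosis machinery the median was 0.07 and none had an unadjusted p under 0.05 in either direction; the initiator caspase Casp8 had 0.34 (95% interval -0.03 to 0.70).

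Metabolic and repair targets of p53 included 4 with an unadjusted p under 0.05, all higher, out of 23 tested, and the median was 0.15. Dcxr, which encodes dicarbonyl and L-xylulose reductase, stood at 455, 361, 441 and 276 in control lung and at 1139.5, 1153, 576 and 756 in mutant lung. Its intestinal values were 397, 389.7, 320.4 and 365 in controls and 462, 358, 334 and 176 in mutants, so the lung groups were apart and the intestinal groups overlapped. It rose by 1.21 in lung (limma adjusted p = 0.033), and its difference between organs was 1.43 (95% interval 0.64 to 2.22). Ddit4l, an inhibitor of mTOR signalling, stood at 291, 235, 153 and 101 in control lung and at 845, 776, 334 and 595 in mutant lung, again without overlap. It rose by 1.73 in lung (limma adjusted p = 0.0255) against 0.15 in intestine, a difference of 1.58 (95% interval 0.50 to 2.66). The lysosomal protease gene Ctsd rose by 0.45 in lung (limma adjusted p = 0.0329), and the spindle gene Ckap2 differed there by 0.35 without passing (limma adjusted p = 0.0815); their differences between organs were 0.30 and 0.39. Exoc4, an exocyst subunit, rose in lung by 0.49 (limma adjusted p = 0.00798) with a value of 0.30 in intestine, and its difference of 0.19 had an interval that held 0 (-0.07 to 0.44).

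Several other members of the pathway had differences between organs whose intervals held 0. Mdm2, the ubiquitin ligase that restrains p53, differed between organs by 0.05 (95% interval -0.26 to 0.36), and Trp53 itself by -0.01 (-0.35 to 0.33). The surveillance genes Usp28 and Trp53bp1 had 0.00 (-0.27 to 0.27) and -0.12 (-0.38 to 0.15). Phlda3, an inhibitor of AKT, was above control in all 4 mutant lungs, but its difference between organs of 0.36 had an interval that held 0 (-0.08 to 0.80). Zmat3, a p53 target that binds RNA, had 0.47 (-0.04 to 0.98). Thus the 13 feedback and surveillance genes had a median of 0.05, with 1 gene of them, Ccng1, at an unadjusted p under 0.05. The 13 arrest and senescence targets also had a median of 0.05, and Cdkn1a was the 1 below that p. Without single libraries their median ran from -0.16 to 0.21, while that of the feedback and surveillance genes ran from 0.04 to 0.12. A list of 6 other cyclin-dependent kinase inhibitor genes, without Cdkn1a and Cdkn2a, had a median of 0.01 (-0.15 to 0.08 without single libraries).

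Lung control 3, the control library rich in ribosomal RNA, was below all 4 mutant lungs for Cdkn1a, Ccng1, Eda2r, Dcxr and Ddit4l. With library kind as a term, the lung calls of Ccng1 (limma adjusted p = 0.0188) and Pmaip1 (0.000251) held, and those of Cdkn1a (0.118), Dcxr (0.29), Eda2r (0.0674), Ddit4l (0.0791), Ctsd (0.402) and Exoc4 (0.118) were lost. The lung differences stayed above 0 with that term: they were 2.28 for Eda2r and 2.04 for Ddit4l, larger than without it. They were 1.68 for Cdkn1a, 1.09 for Ccng1, 1.05 for Dcxr, 0.32 for Ctsd and 0.45 for Exoc4, smaller than without it. For Pmaip1 it was 5.72, also larger. That fit rests on the ribosomal RNA-rich controls, which stood apart low for Pmaip1, at 2.3 in lung control 3 and 43.7 in intestine control 2. Leaving out single libraries kept the lung calls of Cdkn1a, Ccng1 and Exoc4 in each of 24 cases. Those of Eda2r (without lung control 2 or lung mutant 2), Dcxr (5 libraries), Ddit4l (6), Ctsd (7) and Pmaip1 (14) were lost in some. Macrophage genes also had values above 0 in mutant lung. Of 18 such genes, 16 were above 0 in lung (47.8% of all genes) and 9 were higher there at an unadjusted p under 0.05 (5.34%), with a lung median of 0.62 and 0 passing adjustment. By library, the summed level of 5 macrophage markers was 4296 to 8293 in control lung and 6867 to 9872 in mutant lung, and 3546 to 7337 and 2964 to 8884 in intestine. Their part in the p53 values was not tested.

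A second group of genes had a negative difference, with mutant intestine above control intestine. Hlf, which encodes a transcription factor of the PAR bZIP family (ENSMUSG00000003949, chromosome 11, bases 90336536 to 90390895), had the smallest p of all genes for the difference between organs. It stood at 285, 232, 199 and 159 in control intestine and at 614, 587, 497 and 553 in mutant intestine. In lung the controls stood at 2575, 2564, 2715 and 3292 and the mutants at 2503, 2712, 2506 and 3034. Every mutant intestine was above every control intestine, and the lung groups overlapped at a level well above either. Hlf rose by 1.39 in intestine (limma adjusted p = 0.00439), a call that held when each of the 24 libraries was left out and with library kind as a term (adjusted p = 0.0239). Its lung difference was -0.05, and the difference between organs -1.44 (95% interval -2.03 to -0.84, unadjusted p = 3.31e-05, adjusted p = 0.533). DESeq2 called it (adjusted p = 0.00177), and edgeR did not (adjusted p = 0.671). Intestine of Ift88 mutants held 321 ± 125 (SD, n = 4), between the control intestine at 219 ± 53.4 and the Cenpj mutant intestine at 563 ± 50.5. The other PAR bZIP and clock genes had a median of -0.17 with Hlf included, and of the 16 only Cry2, a repressor of the circadian clock, also had an unadjusted p under 0.05 (-0.48, -0.95 to -0.02).

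Sfrp2, a secreted antagonist of Wnt proteins made by mesenchyme, stood at 3764, 3730.3, 2225 and 1898 in control intestine and at 7776, 5379, 4969 and 6856 in mutant intestine. Lung controls stood at 16991, 16091, 23881 and 26303 and lung mutants at 20851, 18217, 25468 and 19631. The intestinal groups were apart and the lung groups overlapped. The intestinal difference was 1.15 (limma adjusted p = 0.0825, above the threshold), and the difference between organs was -1.11 (95% interval -1.76 to -0.46). The authors' deposited table gives its intestinal fold as 2.15 with an FDR of 0.00208. Nkx6-1, a homeobox factor of developing endoderm derivatives and neural tissue, stood at 2012, 1929.6, 2624 and 751 in control intestine and at 3470, 5177, 3415 and 3384 in mutant intestine, without overlap. Its difference between organs was -1.55 (95% interval -2.50 to -0.59). Osr1, a zinc finger factor of the foregut and gut mesenchyme, stood at 9193, 9396, 10797 and 5936 in control intestine and at 13455, 16215, 12234 and 14944 in mutant intestine, again without overlap, and its difference was -0.80 (-1.36 to -0.24). Neither passed within intestine (limma adjusted p = 0.332 and 0.326). In the authors' deposited table the folds of Nkx6-1 were 0.79 in lung and 2.11 in intestine. Those of Osr1 were 0.93 and 1.61.

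**Figure D3:**
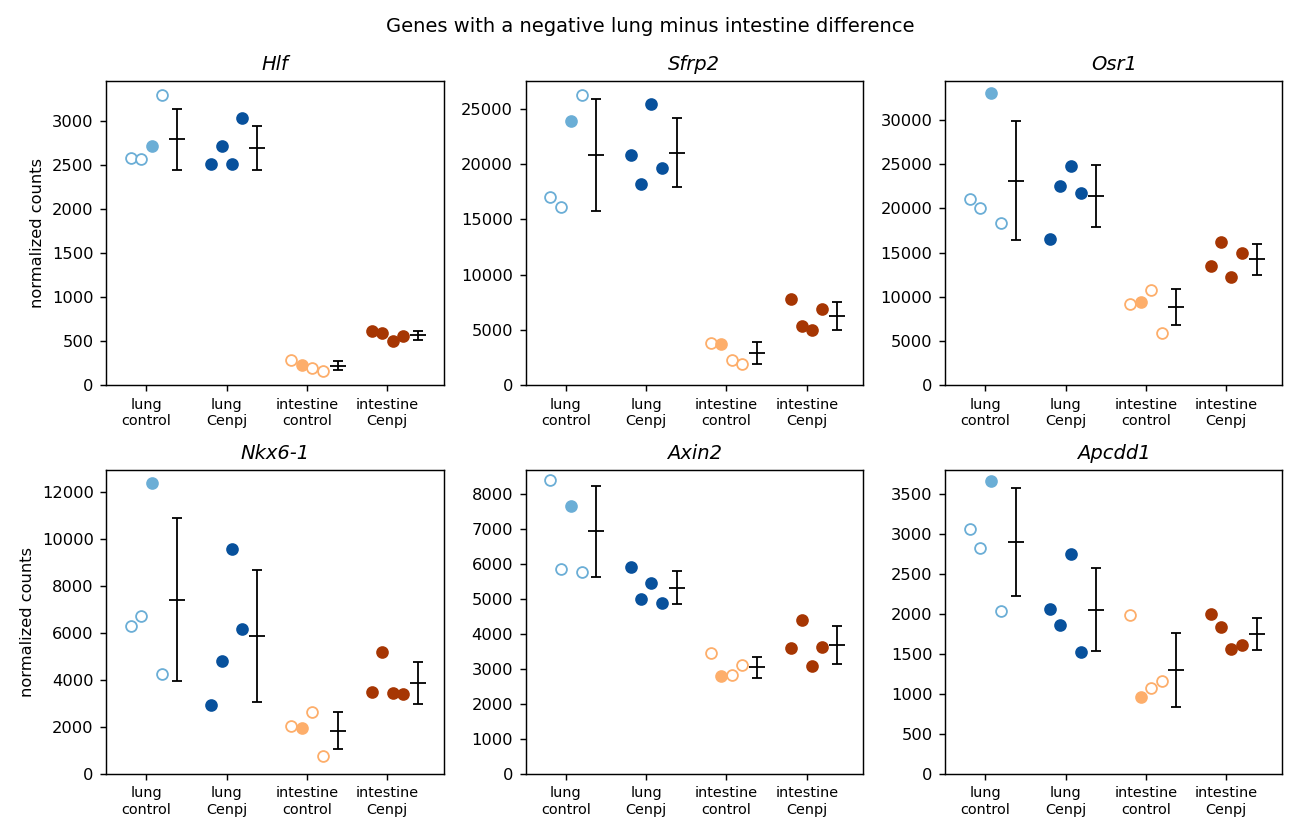
Normalized counts (y axis, from 0) of 6 genes with a negative difference between organs, in the 4 groups (x axis); points are libraries 1 to 4 from left to right, filled where ribosomal RNA exceeded 2000 reads per M reads, and the black mark and bar are the mean and SD (n = 4). Mutant intestine is above control intestine without overlap for Hlf, Sfrp2, Osr1 and Nkx6-1. Axin2 and Apcdd1 are lower on average in mutant lung and higher in mutant intestine. The 6 genes were picked with results of these libraries known, so their separation is not further support.

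Canonical Wnt targets had medians on opposite sides of 0 in the organs, and 1 of their values passed the adjusted threshold, that of Znrf3 in lung. The 16 targets had a median of -0.32 in lung and of 0.19 in intestine, and a median difference between organs of -0.42. Only 2 of the 16 were above 0 (45.9% of all genes), and 5 were lower at an unadjusted p under 0.05 (2.95%): Axin2, Apcdd1, Notum, Znrf3 and Tnfrsf19. Axin2, the negative feedback scaffold of the pathway, stood at 8423, 5872, 7668 and 5788 in control lung and at 5923, 5009.7, 5468 and 4890.2 in mutant lung. In intestine it stood at 3448, 2811, 2826 and 3122 in controls and at 3603, 4414, 3084 and 3638 in mutants. Both pairs of groups overlapped by their nearest libraries, and the difference between organs was -0.63 (95% interval -1.0 to -0.26). Apcdd1, a membrane-bound Wnt inhibitor, differed by -0.50 in lung and by 0.49 in intestine, which is a difference of -0.99 (-1.59 to -0.38). Znrf3, a ubiquitin ligase that clears Wnt receptors, fell by 0.56 in lung (limma adjusted p = 0.0428, lost when any of 12 libraries was left out or with library kind as a term, where the value was -0.44) and differed by -0.17 in intestine. Notum, a secreted Wnt deacylase, had -1.0 (-2.0 to -0.0046), and Tnfrsf19, a receptor of the TNF family, had -0.29 (-0.58 to -0.01).

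Among targets that did not reach that p were Lef1, a transcription factor of the pathway, with -0.90 (-1.92 to 0.12), and Lgr5, a receptor for R-spondins, with -0.84 (-2.16 to 0.48). The 16 Wnt ligand genes had a median of -0.51, of which Wnt4 had -2.0 (-3.69 to -0.32). Its control lungs stood at 1649.7, 1156, 5196 and 627 and its mutant lungs at 137, 301, 2505 and 723, with library 3 the highest of each group. The 9 secreted Wnt inhibitors had a median of -0.07. Leaving out single libraries kept the target median between -0.52 and -0.29.

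Hedgehog genes had medians below 0 in both organs, and none changed in either at the adjusted threshold. The 20 genes had medians of -0.18 in lung and -0.13 in intestine. Their median difference between organs was -0.13, and -0.00037 without intestinal mutant 1, with 0 higher and 1, Osr1, lower at an unadjusted p under 0.05. Gli1, the transcription factor that reads out the pathway, stood at 19653, 16741, 18248 and 18875 in control lung and at 14826, 8615, 14143 and 10401 in mutant lung. In intestine it stood at 16081, 10782, 17139 and 20737 in controls and at 11013, 13791, 11875 and 13326 in mutants. The lung groups were apart and the intestinal groups overlapped, but neither organ passed (limma adjusted p = 0.0624 and 0.802), and the difference between organs was -0.31 (95% interval -0.78 to 0.17). The receptor gene Ptch1 had -0.32 (-0.83 to 0.19), and Hhip, a decoy receptor, had -0.60 (-1.24 to 0.04). The 29 genes of the primary cilium and intraflagellar transport had a median of 0.04, none with an unadjusted p under 0.05 in either direction, and the 27 genes of the centriole and centrosome had a median of -0.03.

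Growth factor pathways gave small medians. The 20 ERK feedback and Etv target genes had a median of -0.06, and Egr1, an immediate early transcription factor, was the 1 with an unadjusted p under 0.05 (-1.17, -1.95 to -0.39). Dusp6, a phosphatase of ERK, had -0.07 (-0.55 to 0.40), and the feedback inhibitor Spry2 had 0.06 (-0.43 to 0.56). Among 11 FGF ligands and receptors the median was -0.02, and Fgf10, the mesenchymal ligand of lung branching, had 0.83 (-0.03 to 1.69). Of 21 BMP and TGF-beta genes, 3 were lower and 0 higher at that p (2.95% and 1.81% of all genes): Chrd, a BMP antagonist (-0.83), Smad7, an inhibitory SMAD (-0.36), and the ligand gene Tgfb2 (-0.48). The list's median was -0.11, and 0.03 without intestine control 3. The 16 Notch genes had -0.12, and 0.02 without lung control 1. Notch3, a receptor of vascular mural cells, fell by 0.54 in lung (limma adjusted p = 0.0431; -0.50 with an adjusted p of 0.28 with library kind as a term, and lost when any of 14 libraries was left out). The 15 retinoic acid genes had -0.03, which turned positive with edgeR and DESeq2 and ran from -0.07 to 0.23 without single libraries.

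No marker of organ identity passed the adjusted threshold for the difference between organs. The 20 genes of lung epithelium had a median of -0.44 in lung and a median difference of -0.23. At an unadjusted p under 0.05, 1 was higher and 2 were lower, beside 1.81% and 2.95% of all genes. Sox2, a transcription factor of the proximal airway epithelium, stood at 1860.4, 402, 1827 and 1066 in control lung and at 57.7, 257, 620.2 and 183 in mutant lung. Control intestine stood at 1942, 569, 2131 and 2243 and mutant intestine at 1945, 1526, 764 and 1304. Control lung 2 fell inside the mutant range, so the lung groups overlapped. Sox2 fell by 2.43 in lung (limma adjusted p = 0.0464), a call lost when any of 16 libraries was left out and with library kind as a term (-2.09, adjusted p = 0.339), and differed between organs by -2.22 (95% interval -3.89 to -0.55). The 17 genes of intestinal epithelium had medians of -0.46 in lung and -0.33 in intestine and a median difference of -0.11, and the 18 general epithelial genes had -0.16. Both turned positive without lung control 1 or intestine control 2 (at most 0.10), and the former also without lung mutant 4 or intestinal mutant 1.

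Some mesenchymal factors varied widely between intestinal libraries. Tbx4 and Tbx5, T-box factors of lung mesenchyme, had differences of -3.14 and -3.89, but intestinal control 4 held 3 and 0 normalized counts of them, where the other intestinal libraries held 175 or more of Tbx4. Without single libraries the values ran from -4.12 to -1.54 for Tbx4 and from -5.03 to -1.47 for Tbx5. The 16 lung mesenchyme genes had a median of -0.15, and 1, Fendrr, a noncoding RNA beside Foxf1, fell by 1.21 in lung (limma adjusted p = 0.0111; -0.67 with an adjusted p of 0.374 with library kind as a term, and lost without lung control 1 or 2) and had -0.84 in intestine. The 17 gut mesenchyme genes had a median of -0.41. Nkx2-3, a gut mesenchyme factor with the largest positive value among the genes named by p, is expressed in intestine, at 5603 to 9478. In lung it stood at 0, 0, 0 and 2 in controls and at 14.1, 8.8, 7.1 and 29 in mutants, so its value of 3.76 rests on a few reads per lung library and on the added 1. Its lung call (limma adjusted p = 0.0156) was lost without lung control 1 or 2 and with library kind as a term (3.58, adjusted p = 0.097).

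The remaining genes with the smallest p and a mean of 200 or more were of mixed function. Those with positive values were Mrps36 (0.76), a mitochondrial protein gene, the trafficking gene Vps51 (0.54), Gnb1l (1.01), Lrrfip2 (0.45), Lta4h (0.38), which encodes leukotriene A4 hydrolase, Pithd1 (0.53), the tubulin gene Tubb6 (0.51) and the noncoding RNA gene Particl (1.59). Of these, Mrps36 rose by 0.60, Lta4h by 0.41 and Tubb6 by 0.56 in lung (limma adjusted p = 0.0479, 0.0179 and 0.0193), and all 3 calls were lost with library kind as a term, where the values were 0.43, 0.31 and 0.42. Without single libraries the call of Mrps36 was lost in 20 cases, that of Lta4h without lung control 1 or 2 or lung mutant 3, and that of Tubb6 without lung control 1 or 2 or lung mutant 1 or 2. Lta4h stood at 12405, 11951, 13175 and 12019 in control lung and at 16066, 16789, 17336 and 15604 in mutant lung, without overlap.

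Negative values were found for Cobl (-0.84), an actin nucleator gene, Shisa7 (-1.33), Rab11fip4 (-0.57), a Rab11 effector, Il15 (-1.66), a cytokine gene, Adamts20 (-1.21), a secreted metalloprotease gene, B3gnt5 (-0.72), Ryr3 (-2.65), a calcium channel gene, Foxn2 (-0.64) and Ccdc112 (-0.69). Shisa7 stood at 1596, 1891, 1518 and 1388 in control lung and at 366, 562, 1230.3 and 728 in mutant lung, without overlap, and fell by 1.28 (limma adjusted p = 0.0179). Adamts20 fell by 1.02 in lung (limma adjusted p = 0.0464), with lung control 3 the highest library. With library kind as a term the call of Adamts20 held (adjusted p = 0.00659) and that of Shisa7 was lost (adjusted p = 0.143) at a value of -1.22; without single libraries that of Adamts20 was lost in 17 cases and that of Shisa7 without lung control 1 or 2 or lung mutant 1 or 2. Ccdc112, which encodes a coiled-coil protein, was apart in both organs in opposite directions. It stood at 2463, 2180.3, 2803 and 2197 in control lung and at 1942, 1978, 1869.8 and 2006 in mutant lung, then at 1750, 2154, 1839 and 2051 in control intestine and at 2556, 2645, 2578 and 2425 in mutant intestine. Neither difference passed (limma adjusted p = 0.321 and 0.514), and the interval of the difference between organs was -1.06 to -0.33. Col7a1, which encodes the collagen of anchoring fibrils under epithelia, fell by 1.29 in lung (limma adjusted p = 0.00308) and differed by -0.40 in intestine, with a difference between organs of -0.90 (-1.49 to -0.31); its call held without each single library and was lost with library kind as a term (-0.99, adjusted p = 0.114). The 24 collagen and matrix genes had a median of 0.01, which turned negative with edgeR and DESeq2 and ran from -0.16 to 0.15 without single libraries.

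Genes of ribosomal proteins and of oxidative phosphorylation had differences between organs above 0 throughout. All 45 cytosolic ribosomal protein genes had a difference between organs above 0, with a median of 0.28, where 45.9% of all genes did, and 3, among them Rpl3 and Rpl8, had an unadjusted p under 0.05 (1.81% of all genes were higher at that p). All 30 genes of the respiratory chain and ATP synthase were above 0 too, with a median of 0.29, and 7 were below that p (1.81% of all genes), among them Atp5e (0.69), Ndufa2 (0.61), Ndufb8 (0.47) and Ndufs3 (0.41). None changed in either organ at the adjusted threshold. Rpl8 stood at 91374, 104700, 106789 and 109341 in control lung and at 125692, 123963, 148374 and 121957 in mutant lung. Control intestine stood at 99521, 130662, 101878 and 98659 and mutant intestine at 109587, 112058, 109953 and 96465, and intestine control 2 was the highest of the intestinal libraries. Its difference was 0.34 (0.05 to 0.62), beside 0.33 for Rpl3.

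By library, the median ribosomal protein gene relative to the organ's control mean was -0.37, 0.13, -0.04 and 0.27 in control lung and 0.04, 0.24, 0.42 and 0.18 in mutant lung. In intestine it was -0.20, 0.46, -0.18 and -0.05 in controls and -0.07, 0.01, 0.03 and -0.26 in mutants. Lung control 1 was the lowest library of all and intestine control 2 the highest, and the groups of each organ overlapped. Without intestine control 2 the median difference between organs was 0.15, and without lung control 1 it was 0.18; for oxidative phosphorylation these values were 0.19 and 0.20. In the ribosomal RNA-rich libraries alone, with 1 control per organ, the medians were 0.77 and 0.69. Ribosomal RNA reads moved with genotype in both organs, and their part in these shifts was not tested.

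**Figure D4:**
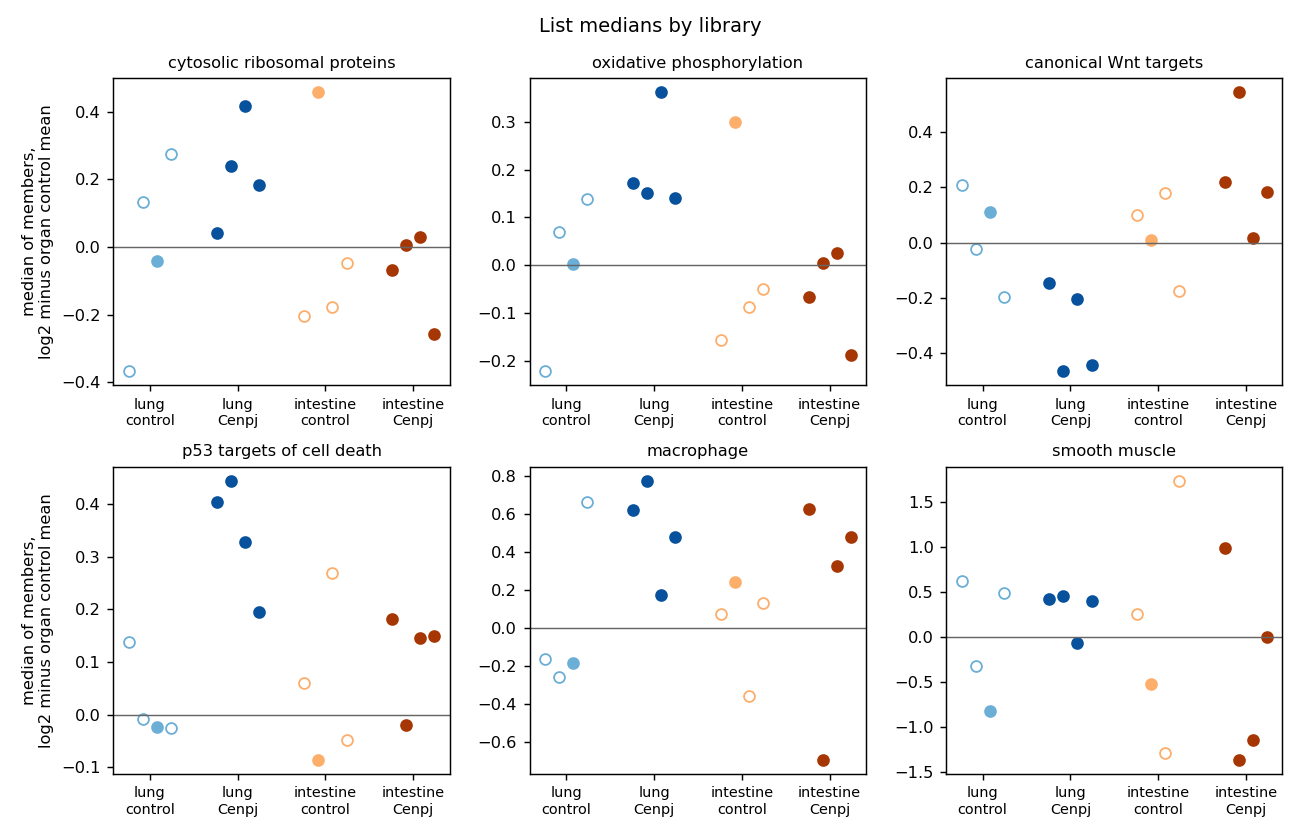
Median over the members of 6 gene lists of log2(value + 1) minus the gene's control mean in the same organ (y axis), in the 4 groups (x axis); points are libraries 1 to 4 from left to right, filled where ribosomal RNA exceeded 2000 reads per M reads. For p53 targets of cell death the 4 mutant lungs lie above the control lungs, while for ribosomal proteins and oxidative phosphorylation the position of intestine control 2 is above the other intestinal libraries.

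Cell cycle genes had small medians. The 26 genes of mitosis and the spindle checkpoint had a median of 0.12, with 23 above 0 (45.9% of all genes). Cdc20, an activator of the anaphase-promoting complex, was the 1 with an unadjusted p under 0.05 (0.32, 0.03 to 0.62). The 26 genes of DNA replication and the G1/S transition had a median of 0.05 and none at that p in either direction. Medians were -0.04 for both the 22 genes of the integrated stress response and the 21 of glycolysis and hypoxia. The plot of list medians shows these groups beside each other.

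**Figure D5:**
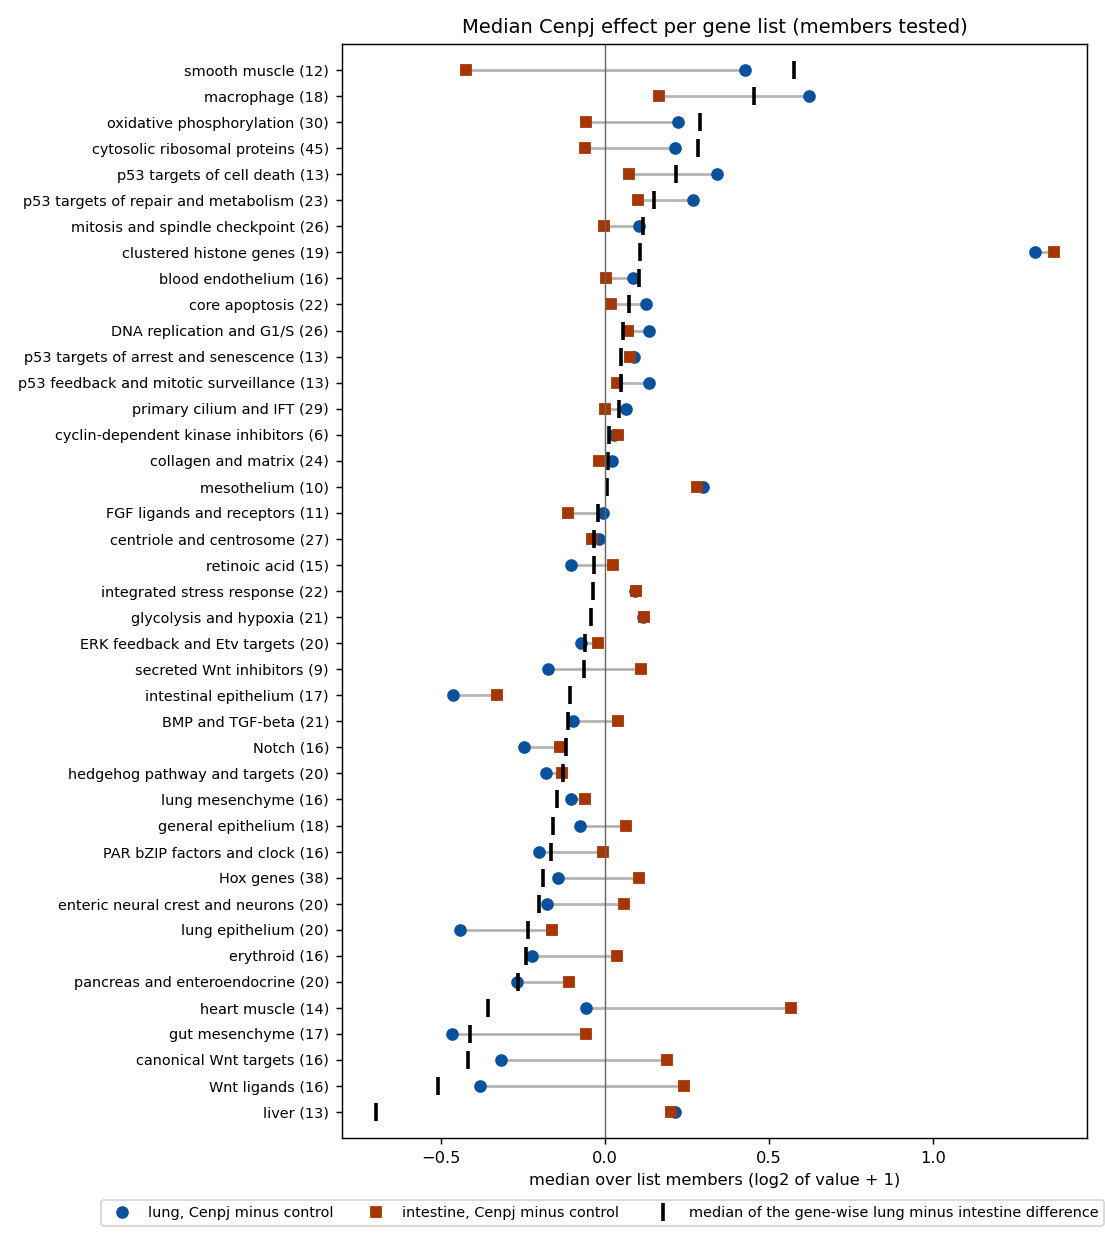
Median mutant minus control difference over the tested members of 41 gene lists (number of members in brackets), on the scale of log2(value + 1), in lung (circles) and intestine (squares); the black tick is the median of the difference between organs taken gene by gene, which sorts the lists. Canonical Wnt targets and Wnt ligands have lung and intestine medians on opposite sides of 0. So do further lists, among them smooth muscle, heart muscle, Hox genes, ribosomal proteins and oxidative phosphorylation. The clustered histone genes are the list farthest above 0 in both organs.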

How the data were processed

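Per the submitters' processing notes, reads were aligned with STAR 2.5.2b to GRCm38 (mm10) and compared with DESeq2 1.16.1; how reads were assigned to genes, by which annotation and with what strand setting, is not given in the sources used here. Genes that overlap, lie antisense or have near-identical copies are therefore uncertain. The deposited table holds 1 normalized count per gene and library (a signal, counts divided by a size factor), with the authors' fold changes (ratio), p-values and FDR per comparison. Within a library the values were multiples of a single step, so whole reads were recovered: 99.3 to 100% of values up to 500 came out whole within 0.051, although in 4 libraries the step is too near 1 for this to be told from the values themselves.

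Because the values are normalized, the test was limma-trend (limma 3.58.1, R 4.3.3) on log2(value + 1) in place of a count test. It was fitted to 24 libraries in 6 groups for genes with a mean of 1 or more, with Benjamini-Hochberg adjustment at 0.05, and was tested on simulated data. Recovered counts were tested with edgeR 4.0.16, limma-voom and DESeq2 1.42.0 as alternatives. Scaling, pseudocounts, filters, blocks, library kind, sex and single libraries were varied too. Named genes were Cenpj and Ift88, the 12 with the smallest p in each direction among genes with a mean of 200 or more (code names left out), and members of 41 gene lists (759 of 765 symbols tested). The comparison, lists and named genes were chosen with earlier results of these data known. Promoters are from RefSeq (GRCm38.p6).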

Additional observations from a re-analysis of the deposited data

Results flagged for a closer look

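Each of the 79 named genes was looked at in 4 groups of 4 libraries for a library far from the other 3, measured as its gap to the nearest divided by the range. This marks 20 of 316 groups, and chance alone marks about 1 in 20. Intestine control 2, the control rich in ribosomal RNA, stood apart 6 times: low for Pmaip1 (43.7, where the others were at 162 or more), Mdm2 (6323), Ptch1 (24016) and Sox2 (569), and high for Ndufb8 (7895) and Rpl8 (130662). Other control intestines that stood apart were library 3 for Mpeg1 (618), library 4 for Tbx5 (0) and library 1 for Fgf10 (1972), all low. In control lung, library 4 was high for Nkx2-3 (2, with the others at 0) and Particl (471), library 3 was low for Pmaip1 (2.3) and library 2 was low for Cdc20 (14828). In mutant lung, library 3 was high for Rpl8 (148374) and library 2 was high for Mpeg1 (1725). In mutant intestine, library 2 was high for Trp53 (35216) and Nkx6-1 (5177), library 3 was low for Cry2 (2075), and library 4 was low for Rpl8 (96465) and high for Fendrr (23596).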

How the results depend on the processing

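The count of genes whose effect differed between organs was 0 in limma and stayed 0 with edgeR, limma-voom, other pseudocounts, a filter on reads per M, 16 libraries, sex or library kind as a term, and each single library left out. It was 44 with DESeq2, 2 with no filter on low values and 605 in ribosomal RNA-rich libraries alone, where 1 control per organ is left and is assumed to vary like the other groups. The 195 lung calls became 725 with DESeq2, 339 with the filter on reads per M, 54 with 16 libraries, 83 with library kind as a term (8 shared), 463 in ribosomal RNA-rich libraries and 105 with sex as a term. The 3 intestinal calls became 99 with DESeq2, 7 with limma-voom, 1 with either edgeR scaling, the filter on reads per M or 16 libraries, 85 with library kind as a term and 524 in ribosomal RNA-rich libraries. Leaving out single libraries gave 41 to 341 lung calls, lowest without lung control 1 or 2 (41) or lung mutant 2 (105) or 3 (100) and highest without intestine control 2 (341) or lung control 4 (340). It gave 2 to 68 intestinal calls, highest without intestine control 2 (68), 4 (17) or 3 (8), or intestinal mutant 1 or 4 (7 each) or 2 (6). The cause was not tested.

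Sign changes of the difference between organs, 41 in 3002 recomputed values of single genes, were in genes whose interval held 0, except Tbx4. In ribosomal RNA-rich libraries alone the values were -0.041 for Cenpj, -0.14 for Zmat3, -0.19 for Mdm2, 0.20 for Lef1, 0.44 for Dusp6, -0.49 for Spry2, 0.14 for Tbx4 and 0.28 for Ift88. With sex as a term Cenpj had -0.049 and Mdm2 -0.0074, and Usp28 was -0.0014 in edgeR with DESeq2-type size factors and -0.0016 in DESeq2. Without single libraries the ranges were -0.14 to 0.18 for Cenpj, -0.23 to 0.12 for Dusp6, -0.080 to 0.062 for Ift88, -0.034 to 0.13 for Mdm2, -0.097 to 0.22 for Spry2, -0.079 to 0.088 for Trp53 and -0.042 to 0.062 for Usp28. Of list medians, 1512 of 1558 recomputed values moved by less than the standard error of the list's difference between organs, computed from its library medians. The sign stayed the same throughout in 17 of 41 lists, among them ribosomal proteins, oxidative phosphorylation, Wnt targets, p53 targets of cell death, hedgehog and macrophage genes.

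Replicate numbers were not taken to pair lung and intestine. Deviations of same-numbered libraries over genes with a mean of 200 or more correlated at 0.36, 0.16, 0.16 and 0.21 in controls, but at 0.11, -0.13, 0.10 and 0.10 in mutants. With the replicate number as a block the calls were 0 between organs, 219 in lung and 2 in intestine, and the block of genotype and number gave 0 between organs. Under the latter block the unadjusted p was 0.0095 for Actg2, 0.0186 for Acta2 and 0.0391 for Casp8, with adjusted p of 0.743, 0.761 and 0.762.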

Other observations

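Other cell types of the dissected organs gave values with wide spread. Smooth muscle genes had the most positive list median, 0.58 over 12 genes with 11 above 0 (45.9% of all genes). None of the 12 had an unadjusted p under 0.05 in either direction. Acta2, the smooth muscle actin, stood at 15746, 6061, 3054 and 13301 in control lung and at 19863, 26628, 10991 and 21545 in mutant lung, then at 8591, 4325, 811 and 55733 in control intestine and at 19243, 1674, 2128 and 5437 in mutant intestine. Intestine control 4 stood far above the other intestinal libraries, and without it the list median was 0.03. Actg2, the enteric actin, had 2.36 (95% interval -0.11 to 4.84). Macrophage genes had a median of 0.46 over 18 genes with 15 above 0 (45.9% of all genes), and 0.08 without intestinal mutant 2. C1qc, a complement subunit, had 0.67 (-0.16 to 1.51), and Mpeg1, a pore-forming protein of phagocytes, had 0.86 (0.02 to 1.70). In the blood endothelium list the median was 0.10, with 13 of 16 above 0 (45.9% of all genes). Pecam1, an endothelial adhesion receptor, rose by 0.61 in lung (limma adjusted p = 0.0282) and had 0.14 in intestine. With library kind as a term the lung value of Pecam1 was 0.49 (limma adjusted p = 0.311). Its call was also lost without lung control 2 or 4 or lung mutant 1 or 2.

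Lists of neighbouring organs, which can enter a dissection, had medians of -0.70 for liver (0.23 to 0.45 without lung control 2, lung mutant 1 or 2 or intestinal mutant 2) and -0.36 for heart muscle. Pancreas and enteroendocrine cells had -0.27 (0.08 without intestine control 4 and 0.10 without intestinal mutant 3), and enteric neural crest and neurons had -0.20 (0.10 without lung control 3 and 0.25 without lung mutant 1). Liver markers summed to 261 to 11651 in the lung libraries and to 2006 to 37338 in the intestinal libraries. The erythroid list had -0.24 (0.04 without lung control 1). Mesothelium had 0.01, negative with edgeR and DESeq2 and from -0.23 to 0.29 without single libraries. Hox genes had a median of -0.19 over 38 genes, none with an unadjusted p under 0.05, and the median was 0.11 without lung control 2, 0.13 without intestine control 4 and 0.03 without intestinal mutant 2. Clustered histone genes had medians of 1.31 in lung and 1.37 in intestine, with 0 of 19 passing adjustment in either organ and 5 of 19 at a mean of 200 or more. By library, the median relative to the control mean was -0.61, -0.22, 1.78 and 0.09 in control lung and 1.09, 1.80, 1.93 and 1.68 in mutant lung, so lung control 3, the control rich in ribosomal RNA, lay inside the mutant range. The median difference between organs was 0.11, turned negative with edgeR and DESeq2, and ran from -0.25 to 0.73 without single libraries. Hist1h2bc was the 1 of 19 with an unadjusted p under 0.05 (0.87, 0.27 to 1.48). Most of these transcripts lack a poly(A) tail, and ribosomal RNA reads were higher in the mutant libraries and in 1 control of each organ; their part in the histone values was not tested.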
